A study of Homo sapiens with 6 samples.

Results

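Rab GTPases are the switches of membrane traffic. DENN domain proteins load them with GTP, TBC domain proteins stimulate GTP hydrolysis, and effectors such as the Rab11 family interacting proteins bind the loaded form. TBC1D23 is an unusual member of the TBC family, since its TBC domain lacks the catalytic residues and the protein acts at the trans-Golgi, where it links golgins to the WASH complex on vesicles that arrive from endosomes. The cassette exons of these genes were taken as 1 group: all events in genes with a TBC1D, DENND, RAB or RAB11FIP symbol, together with RABGAP1. The group held 199 of 24725 cassette exon events, in 72 of 7969 genes. It comprised 70 events in 22 TBC domain genes, 29 events in 9 DENN domain genes, 91 events in 35 Rab GTPase genes (1 of them, RAB4B-EGLN2, a read-through with its neighbour), 7 events in 4 regulators of Rab3 and 2 events in 2 Rab11 family interacting proteins. TBC1D23 was placed at its head with earlier results of these data known, and was thus selected on its measured difference. Its values are given below as a description with no test.

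The cells were MDA231-BrM2a, which derive from the human breast cancer line MDA-MB-231 and metastasise to brain. Control cells carried the empty pRetroX-Tight-Pur vector and were not clonal (n = 3), and RBM47 cells were the wild-type clone numbered 10, which carries a doxycycline-inducible RBM47 transgene (n = 3). RBM47 is an RNA-binding protein, and the comparison asked which exons were included differently when it was expressed. Cells of both groups received doxycycline at 10 ng/ml for 3 days before RNA was extracted. Expression of RBM47 and origin from 1 clone go together in this design and cannot be told apart. The labels do not say that the samples of a group came from separate cultures. The limma p-values therefore measure the spread between these samples, which may be technical. Fisher's exact test was run on reads pooled over a group, so its p-values do not measure that spread.

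Reads over both groups ranged from 36 to 13573 per member, with a median of 652. They were deposited as totals of a group (150991 control and 130360 RBM47 reads over the members), and per-sample depth is unknown. RBM47 itself had 0 events in the table and could not be checked. RBM47 replicate 2 stood apart, with 14.8% of its rates at exactly 0 or 1 over 6000 events of intermediate inclusion, against 6.1% to 7.63% in the other samples. Among members the count was 6 of 36 in that replicate and 1 to 3 of 36 elsewhere. Of 9 markers of mesenchymal breast cancer lines, 8 had events, led by VIM with 741835 control and 507943 RBM47 reads. Of 11 luminal or epithelial markers 1 had an event (ERBB3, 33 and 20 reads), and of 8 immune or stromal markers 0 had one. The table lists genes only through their cassette exons, so a gene with no event was not measured.

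The inclusion rate of a cassette exon is the share of transcripts, as seen by junction reads, that contain the exon, and it ranges from 0 (always skipped) to 1 (always included). Rates in 5.63% of all rows did not average to the averages printed in the same row, and rates were then taken from the row whose averages matched. This concerned 13 of the 199 members. For the main events of TBC1D23, TBC1D15, RAB30 and RAB11FIP3 no row matched both averages, and the rates came from the row that matched the RBM47 average. The read totals, which stayed in their own rows, gave rates within 0.0103 (control) and 0.0483 (RBM47) of those means, whereas the printed control averages were at least 0.423 away from them.

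In TBC1D23 a short coding exon was included in nearly all control transcripts and in a minority of RBM47 transcripts. The event spans positions 101511936 to 101517720 of chromosome 3 in the table, whose genome build is not stated. Its inclusion rate was 0.977, 0.983 and 0.960 in the control samples and 0.481, 0.378 and 0.344 in the RBM47 samples. The groups did not overlap, and the lowest control sample was above 0.9 while each RBM47 sample was below 0.5. The mean was 0.973 ± 0.012 in control and 0.401 ± 0.071 in RBM47 cells (SD, n = 3 each), a difference of -0.572. Leaving out RBM47 replicate 2 gave -0.561, and leaving out any 1 sample gave -0.612 to -0.544. Control cells had 673 including and 8 skipping reads, RBM47 cells had 121 and 91, and the rates computed from these sums differed by -0.577.

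The other 3 events of TBC1D23 stayed near their extremes. A pair of events that share both outer ends (101462525 to 101483380) had a rate of 1 in every sample, with 319 and 217 including control reads and 127 and 88 including RBM47 reads. With 0 skipping reads, these depths allow skipped shares (1 minus the rate that 3 skipping reads would give) of up to 1.85% and 2.69% in control and 4.51% and 6.38% in RBM47 cells, counting error only, since reads are not independent molecules. An exon between 101492111 and 101496744 was almost always skipped, at 0, 0.0112 and 0 in control and 0.0222, 0 and 0.0417 in RBM47 samples. The difference within TBC1D23 was thus seen at 1 of its 4 events.

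The 3 coding exons past the study's criteria (given below) are shown with 20 intron bases on each side, because they are the sequences whose inclusion was measured. The RAB30 exon, which differed more than that of RAB11FIP3, is untranslated and is not printed. They were read from GRCh37 after each event was matched by gene and outer span to 3 consecutive exons of the GENCODE annotation. Capitals mark the cassette exon, lower case the introns, and the coding strand is given 5′ to 3′ (all 3 genes lie on the plus strand). They lie at chr3:100030657-100030741, chr12:72288085-72288175 and chr16:541114-541288, in that order.
TBC1D23: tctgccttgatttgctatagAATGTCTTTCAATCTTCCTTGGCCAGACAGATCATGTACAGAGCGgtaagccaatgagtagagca
TBC1D15: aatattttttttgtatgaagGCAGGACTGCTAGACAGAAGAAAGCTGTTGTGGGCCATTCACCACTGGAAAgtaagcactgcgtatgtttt
RAB11FIP3: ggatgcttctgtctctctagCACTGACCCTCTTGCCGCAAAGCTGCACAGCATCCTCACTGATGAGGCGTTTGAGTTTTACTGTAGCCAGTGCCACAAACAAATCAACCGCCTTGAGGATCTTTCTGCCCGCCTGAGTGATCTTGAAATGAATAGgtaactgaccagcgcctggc
All 3 exons are coding, are flanked by AG and GT, and have a length that is a multiple of 3 and at least 1 reading frame without a stop codon. The TBC1D23 exon (100030677 to 100030721 on chromosome 3) has 45 bases and sits between introns of 1290 and 4221 bases. The TBC1D15 exon (72288105 to 72288155 on chromosome 12) has 51 bases between introns of 1000 and 310 bases, and the RAB11FIP3 exon (541134 to 541268 on chromosome 16) has 135 bases between introns of 2133 and 5555 bases.

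**Figure D1:**
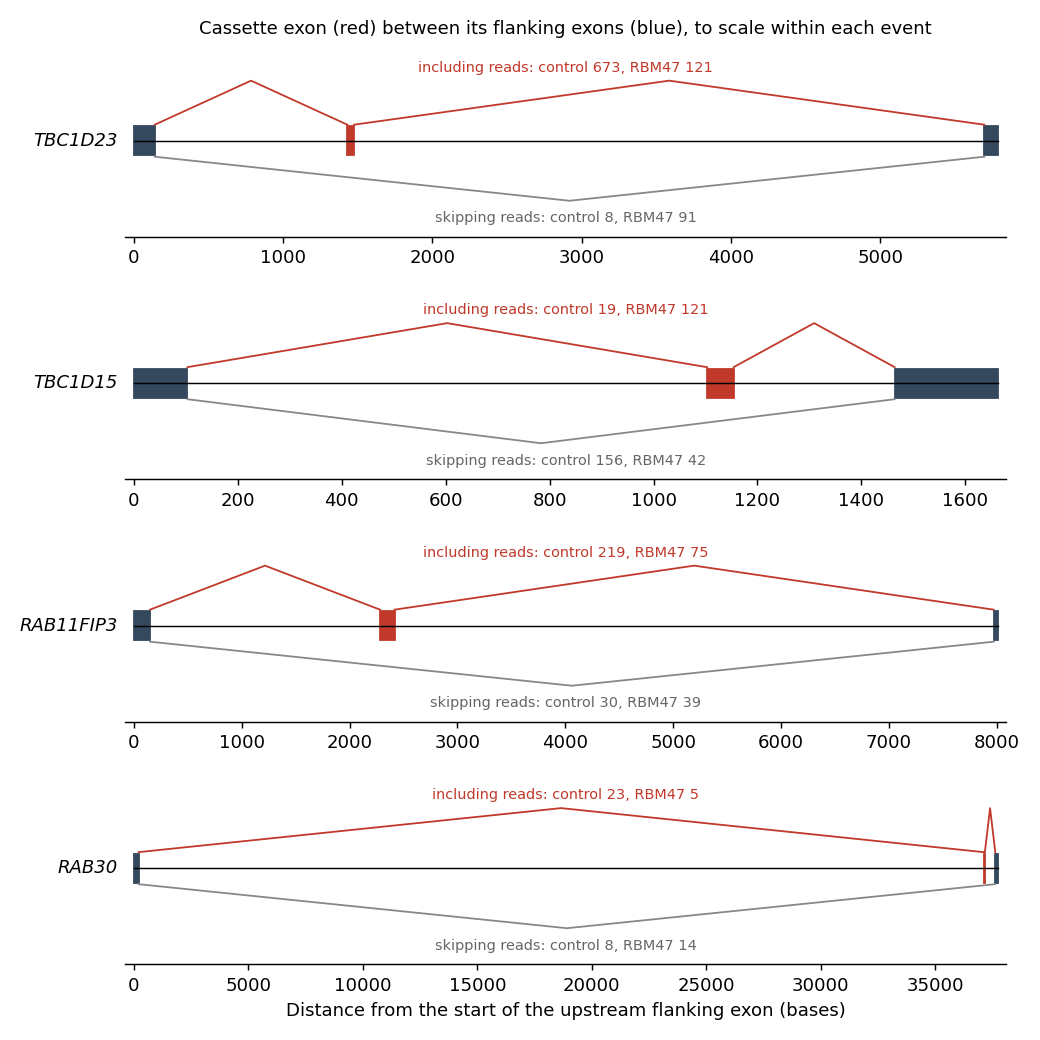
Exon and intron layout of the TBC1D23, TBC1D15, RAB11FIP3 and RAB30 events, each drawn to its own scale in bases from the start of the upstream flanking exon, in the direction of transcription. Red boxes are cassette exons, blue boxes flanking exons, and the printed numbers are reads summed over the 3 samples of a group: in TBC1D23 the skipping reads number 8 in control and 91 in RBM47 cells, in TBC1D15 the including reads number 19 and 121.

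The study's criteria were 10 or more reads, means 0.2 or more apart and p ≤ 0.05, unadjusted, in Fisher's exact test on the read totals. TBC1D23 was chosen on its difference and is left out of the counts that follow. Of the 195 events in the other genes, 1 was higher in RBM47 cells (TBC1D15) and 2 were lower (RAB30 and RAB11FIP3). Among the 24708 events with rates, 0.615% (152) were higher and 0.793% (196) lower by the same criteria. These calls were recomputed here and are more than the study reports in either direction. Because Fisher's test runs on pooled reads and is blind to replicate spread, the rates were also tested with limma over the 6000 events with a mean rate of 0.1 to 0.9, calling events whose Benjamini-Hochberg adjusted p was below 0.05 and whose means were 0.2 or more apart. Of the 199 members 36 were in that range, 35 of them outside TBC1D23. In limma 1 of the 35 was higher (TBC1D15, against 0.750% of all tested events) and 0 were lower (against 0.783%). TBC1D23 and TBC1D15 lay in the tested range because the groups differed: their control means, 0.973 and 0.0499, were outside it. An unadjusted limma p under 0.05 was found for 4 of the 35 (11.4%), against 12.0% of all tested events. Every RBM47 sample lay on 1 side of every control sample in 5 of the 35 (14.3%), namely TBC1D15, DENND5A, 1 RAB34 event, RAB30 and RAB11FIP3, against 17.9% of all tested events.

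**Figure D2:**
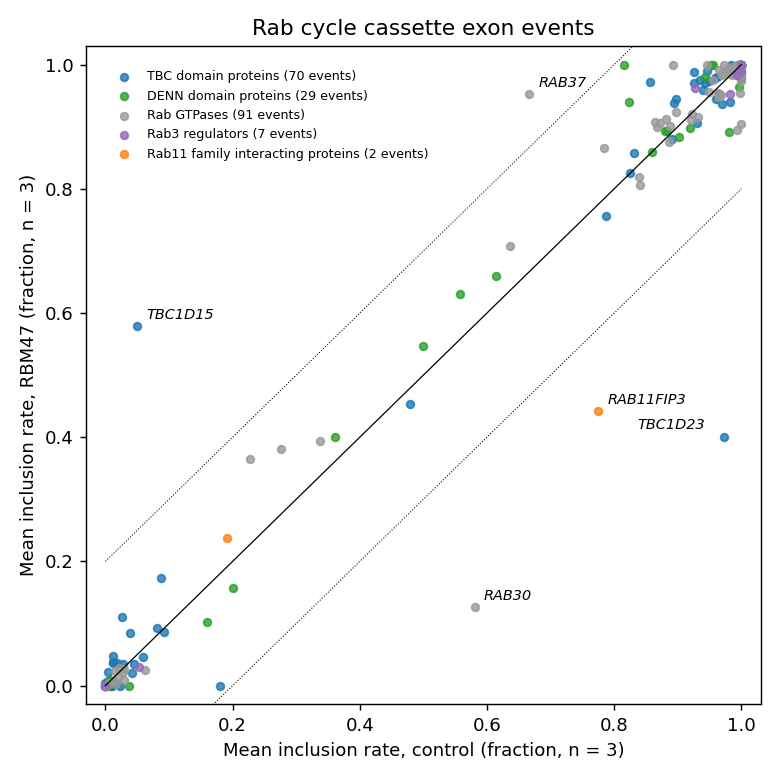
Mean inclusion rate of the 199 member events in control (x axis) and RBM47 cells (y axis), as fractions over 3 samples each, with 1 point per event coloured by role. The solid line marks equal rates and the dotted lines a difference of 0.2; 5 events lie beyond them (TBC1D15 and RAB37 above, TBC1D23, RAB11FIP3 and RAB30 below), and 175 of the 199 differ by less than 0.05.

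TBC1D15, a TBC domain protein known to act on Rab7 and to be recruited to mitochondria, had the opposite change. Its exon (70573268 to 70574929 on chromosome 12 in the table) was included at 0.104, 0.0296 and 0.0159 in control and at 0.726, 0.472 and 0.538 in RBM47 samples. The exon was thus nearly absent from control transcripts and present in roughly equal parts with the skipped form in RBM47 cells. The mean rose from 0.0499 ± 0.048 to 0.579 ± 0.132 (SD, n = 3 each), a difference of 0.529. The limma adjusted p was 0.00904, and Fisher's exact test on 19 including and 156 skipping control reads against 121 and 42 RBM47 reads gave p = 1.67e-34. The event entered the limma test only because its RBM47 rates brought its mean into the range of 0.1 to 0.9. Without RBM47 replicate 2 the difference was 0.582 and the limma adjusted p 0.0166. Without control replicate 3 the difference was 0.512 and the limma adjusted p 0.0621, above the limit of 0.05. The call was kept without any other single sample, at limma adjusted p-values of 0.0166 to 0.0462. The other 5 TBC1D15 events kept their side of the range. A coding exon between 70552975 and 70565067 had mean rates of 0.983 and 1, and 3 further events between 70552975 and 70573368 had means of 0.856 to 0.934 in control and 0.938 to 0.975 in RBM47 cells. An event between 70587068 and 70593972 was skipped in nearly all transcripts (0.00676 and 0.00444).

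The remaining TBC domain events mostly showed little difference. Apart from TBC1D23 and TBC1D15, differences over the other 68 TBC domain events ran from -0.180 to 0.117. TBC1D12 (96191642 to 96224529), named after its values were seen, had 11 including and 96 skipping control reads against 39 and 90 RBM47 reads. Fisher's exact test on these gave p = 0.000197, and their rates differed by 0.124. The means of its samples differed by 0.0850, its groups overlapped and the limma adjusted p was 0.592. TBC1D5, a Rab7 regulator bound to retromer, was at 0.268, 0.273 and 0 in control and at 0 in each RBM47 sample (-0.180), with 43 and 14 reads. It was the member just outside the threshold on the lower side, and 1 control sample did not show the exon either. Without that sample, control replicate 3, the difference was -0.271 and the event passed the study's criteria. TBC1D7, a subunit of the TSC complex, had 569 control and 597 RBM47 reads and the same mean rate of 0.825 in both groups (SD 0.037 and 0.035, n = 3 each). TBC1D13, a regulator of Rab35, was at 0.892 and 0.880. TBC1D2, which acts on Rab7 at cell contacts, was at 0.831 and 0.858 with 685 and 677 reads. The limma adjusted p was 0.804 for TBC1D2, 0.959 for TBC1D13 and 1 for TBC1D7. Reads of TBC1D3 and TBC1D3F, copies of 1 recent gene family, may be split between near-identical copies and are uncertain.

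Among the 91 events of Rab GTPases, 1 passed the study's criteria, a lower event in RAB30, a Golgi-resident Rab. Of all events 0.793% were lower and 0.615% higher by these criteria. An untranslated exon of 56 bases in the 5′ part of the gene (82422861 to 82460586 on chromosome 11 in the table; 82745769 to 82745824 on the minus strand in GRCh37) was included at 0.647, 0.556 and 0.538 in control and at 0.130, 0.25 and 0 in RBM47 samples. The groups did not overlap, and the mean went from 0.580 ± 0.058 to 0.127 ± 0.125 (SD, n = 3 each). This event had 31 control and 19 RBM47 reads (23 including and 8 skipping, then 5 and 14). Fisher's exact test on these totals gave p = 0.00133, while the limma adjusted p was 0.352, so the difference of -0.454 did not pass at the replicate level. Leaving out RBM47 replicate 2 gave -0.515 with a limma adjusted p of 0.269. The span of this event matched the annotated exons within 1 base and not exactly. A second RAB30 event that ends at the same position (82385913 to 82460586) went the other way, at 0.184, 0.205 and 0.292 in control and 0.385, 0.583 and 0.128 in RBM47 samples. Its groups overlapped (limma adjusted p = 0.746), and its difference of 0.138 became 0.257 without RBM47 replicate 3. Both remaining RAB30 events, which share their ends (82376276 to 82386013), were at 0.935 to 0.976 in control samples and at 1 in each RBM47 sample.

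**Figure D3:**
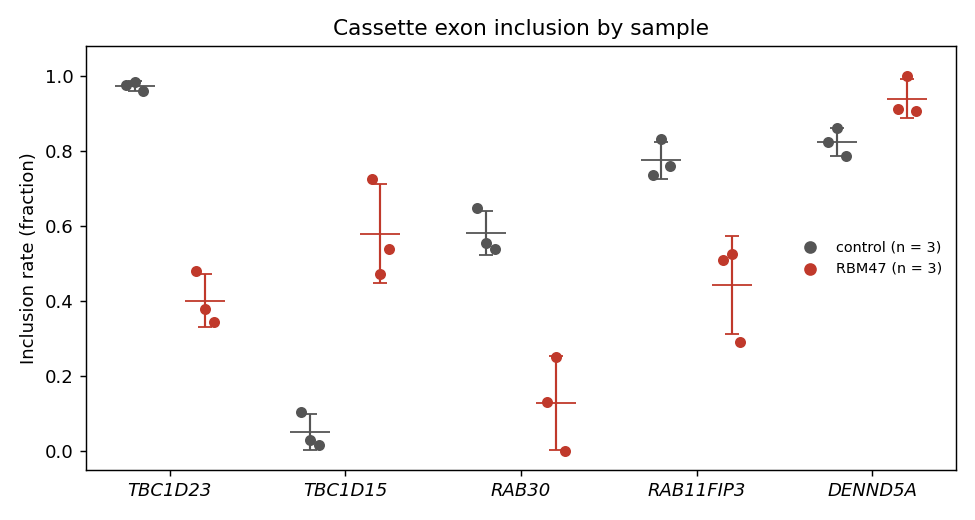
Inclusion rate (fraction, y axis) of single samples for the main events of TBC1D23, TBC1D15, RAB30 and RAB11FIP3 and for the DENND5A event at 9120844. Points are samples (grey control, red RBM47), horizontal lines means and bars SD (n = 3 each). The 5 events were picked by the study's criteria or an unadjusted limma p under 0.05, which favours separated groups. The groups do not overlap in any of the 5, against 17.9% of all tested events. The gap is widest in TBC1D23, which was chosen on its difference, from 0.960 to 0.481.

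The other 90 events of Rab GTPases differed by -0.0993 to 0.286. The upper end was RAB37, a Rab of secretory granules, just inside the 0.2 threshold (0.286) with 15 control and 24 RBM47 reads. Its rates were 1, 0 and 1 in control and 0.857, 1 and 1 in RBM47 samples, so a single control sample at 0 made the difference, which was -0.0476 at its lowest when 1 sample was left out (limma adjusted p = 0.769 with all samples). Its read totals gave 0.875 and 0.92. Deeply covered Rab events differed little. RAB22A, a Rab of early endosomes, was at 0.841 and 0.807 with 1427 and 1066 reads (limma adjusted p = 0.632). RAB2A, which acts between the endoplasmic reticulum and the Golgi, was at 0.867 and 0.899 with 2178 and 2167 reads (limma adjusted p = 0.589). RAB34, a Rab of the Golgi and the primary cilium, had 3 tested events with differences of 0.0142, 0.0301 and 0.0710. In the last of these the groups did not overlap (0.690, 0.536 and 0.683 against 0.693, 0.724 and 0.705), with a limma adjusted p of 0.561. Its read totals gave higher rates and a smaller difference, 0.907 and 0.935, and those of the event that differed by 0.0142 gave -0.00377.

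Events near 0 or 1 were outside the tested range, and 2 Rab genes among them were chosen after their values were seen. In RAB7A, the Rab of late endosomes and lysosomes, 1 of a pair of events sharing both ends (129927725 to 129996952) was included at 0.0527, 0.0756 and 0.0594 in control and at 0.0178, 0.0223 and 0.0376 in RBM47 samples. These small rates did not overlap, and they rest on 202 including reads beside 1553 skipping ones in control, and on 66 beside 1154 in RBM47 cells. The other event of the pair overlapped between groups, at 0.0303, 0.0220 and 0.0306 in control and 0.0210, 0.0085 and 0.0342 in RBM47 samples. RAB6A, a Golgi Rab, had an event (73104943 to 73109591) at 1, 0.981 and 1 in control and at 0.912, 0.771 and 1 in RBM47 samples, where the lowest value came from RBM47 replicate 2. It had 207 control and 163 RBM47 reads. A second RAB6A event with the same ends had more reads (637 and 374) and differed less. Its rates were 1, 0.992 and 1 in control and 0.954, 0.908 and 1 in RBM47 samples.

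No DENN domain event passed the study's criteria, over 29 events in 9 genes, or the limma test, over 11 tested events. The criteria called 0.615% of all events higher and 0.793% lower, and limma 0.750% and 0.783% of those tested. With so few DENN domain events, counts of 0 do not set these genes apart. Of the 11 tested events 1 had an unadjusted limma p under 0.05, against 12.0% of all tested events. That event was in DENND5A (9120844 to 9122400 on chromosome 11 in the table), which encodes a Rab6-binding exchange factor. Its coding exon of 83 bases was included at 0.824, 0.860 and 0.787 in control and at 0.912, 1 and 0.906 in RBM47 samples. The groups did not overlap and differed by 0.116, with a limma adjusted p of 0.281 and 631 and 286 reads. Without RBM47 replicate 2 the difference was 0.0855. The other 3 tested DENND5A events differed by 0.00963, -0.000032 and -0.0580, and their groups overlapped. For the last of these the read totals gave -0.00997. Outside the tested range, 1 DENND5A event (9128802 to 9138987) is named after its values were seen. It was at 0.953, 0.932 and 0.973 in control and at 1 in each RBM47 sample (0.0474), with 969 and 421 reads. The remaining DENND5A events overlapped between groups or had the same rate in every sample. DENND1A, an exchange factor for Rab35, had means of 0.50 and 0.547 (limma adjusted p = 0.804), while its read totals gave 0.724 and 0.788. DENND4C, an exchange factor for Rab10, was just outside the threshold on the higher side (0.185), at 1, 0.778 and 0.667 in control and 1 in each RBM47 sample, with 61 and 18 reads.

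RAB11FIP3, an effector of Rab11 on recycling endosomes that serves cytokinesis, held the lower event with the longest exon. Its coding exon (478851 to 486859 on chromosome 16 in the table) was included at 0.735, 0.831 and 0.759 in control and at 0.510, 0.524 and 0.292 in RBM47 samples. All RBM47 samples were below all control samples. The mean was 0.775 ± 0.050 in control and 0.442 ± 0.130 in RBM47 cells (SD, n = 3 each), a difference of -0.333, and the totals were 219 including and 30 skipping reads against 75 and 39. Fisher's exact test gave p = 2.33e-06. The limma adjusted p was 0.0940, which did not pass, and it was 0.0457 when the rates were not transformed. Without RBM47 replicate 2 the difference was -0.374 and without RBM47 replicate 3 it was -0.258. RAB11FIP1, a Rab11 effector in receptor recycling, was at 0.188, 0.217 and 0.170 in control and at 0.467, 0.0476 and 0.20 in RBM47 samples. Its RBM47 samples lay on both sides of the control samples (limma adjusted p = 0.966). Its read totals put the exon as mostly included, at 0.675 and 0.793, so its level is uncertain. The 7 events of the Rab3 regulators (RAB3GAP1, RAB3GAP2, RAB3IP and RAB3IL1) differed by -0.0284 to 0.0349, and 0 of them were in the tested range.

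**Figure D4:**
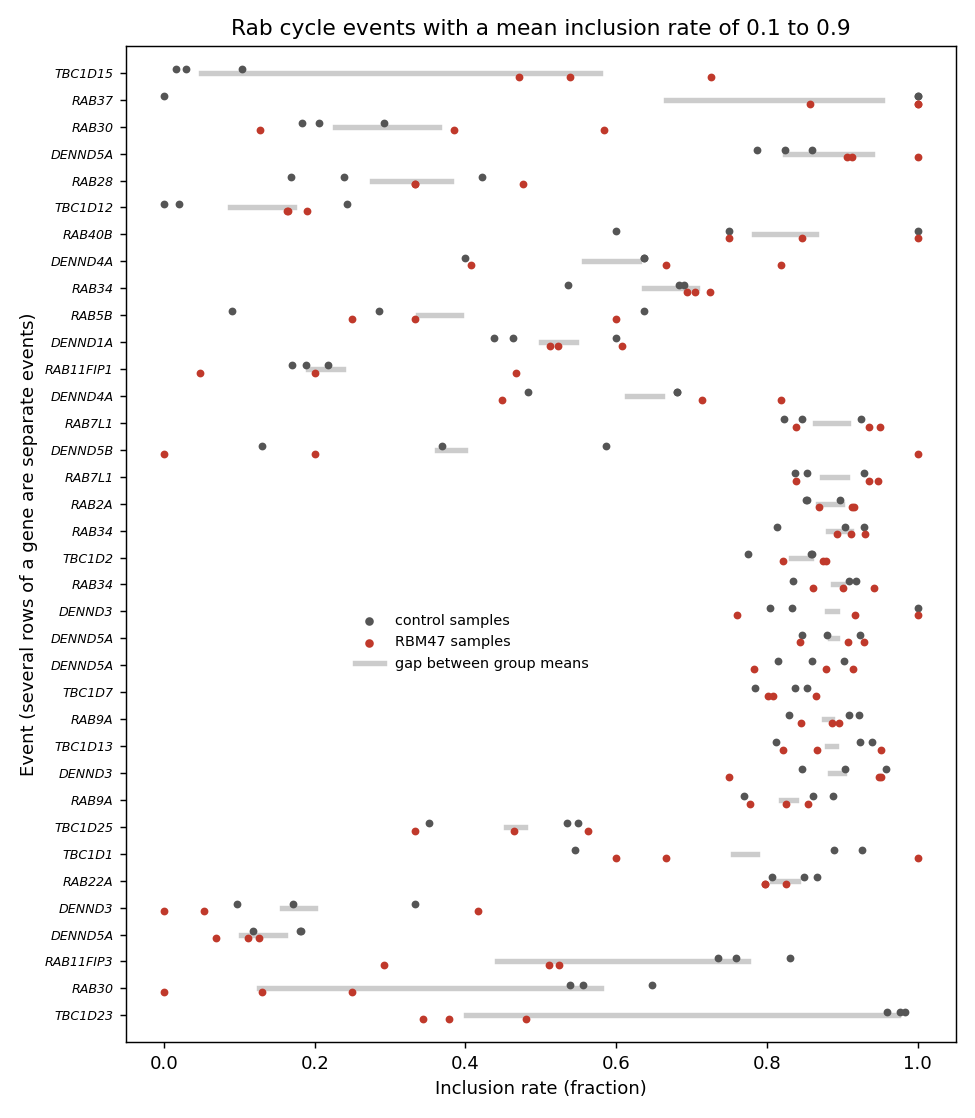
Inclusion rates (fraction, x axis) of single samples for the 36 member events with a mean rate of 0.1 to 0.9, 1 row per event ordered by the difference between groups. Points are samples (grey control, red RBM47; 3 each), and the pale bar joins the group means: the bars of TBC1D15 at the top and of TBC1D23, RAB30 and RAB11FIP3 at the bottom are long with separated points, while that of RAB37 rests on 1 control sample at 0.

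Most Rab cycle exons, like most exons of the table, were close to fixed. The mean rate was above 0.9 in 118 of 199 events (59.3%, against 55.7% of all events), below 0.1 in 45 (22.6%, against 4942 of the 24708 events with rates) and between in 36. The rate was 1 in all 6 samples for 29 events (14.6%, against 12.4%) and 0 in all 6 for 6 events (3.02%, against 2.80%). The difference between groups was under 0.05 in 175 events (87.9%), against 80.3% of all events, and the median absolute difference was 0.0110 against 0.0114. Within the tested range the median absolute difference was 0.0437 over the 36 members and 0.0597 over all 6000 events. Of the 199 events 64 share both outer ends with another event of the same gene and are not separate measurements.

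An annotated exon could be matched for 89 members (44.7%), against 37.3% of all events. The exon length was a multiple of 3 in 42 of these (47.2%) against 46.2% over all matched events, and in 3 of the 4 events past the study's criteria. The median length was 96 bases for members and 107 for all matched events, while the 4 events had 45, 51, 56 and 135 bases. The run TTTTT, searched on the transcribed gene's own strand within 100 intron bases upstream of the exon, was found for 49.4% of members and 41.7% of all matched events. It was found for TBC1D23 and TBC1D15 and not for RAB30 or RAB11FIP3. These features describe the matched exons only.

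Read totals of TBC1D23 were lower in RBM47 cells at every event. An included exon has 2 junctions and a skipped one has 1, so including reads were divided by 2 and added to skipping reads. The sums of RBM47 cells were 0.354 to 0.440 times those of control cells at its 4 events. Among these, the pair of events that were always included gave 0.398 and 0.406. The median ratio was 0.775 over the members and 0.858 over all events, whose middle range was 0.645 to 1.07. TBC1D15 ranged from 0.619 to 0.818, RAB30 from 0.771 to 0.890, and RAB11FIP3 gave 0.548. By gene, among members with at least 4 events, the median ratio ran from 0.400 in RAB28 and 0.402 in TBC1D23 through 0.433 in DENND5A to 1.13 in RAB7L1. DENN domain events had a median of 0.519, Rab GTPases 0.865 and TBC domain events 0.791. These are sums over 3 samples of a group with no spread, so no test was made. In RNA from whole cultures, fewer cells that express a gene and less RNA per cell cannot be told apart.

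**Figure D5:**
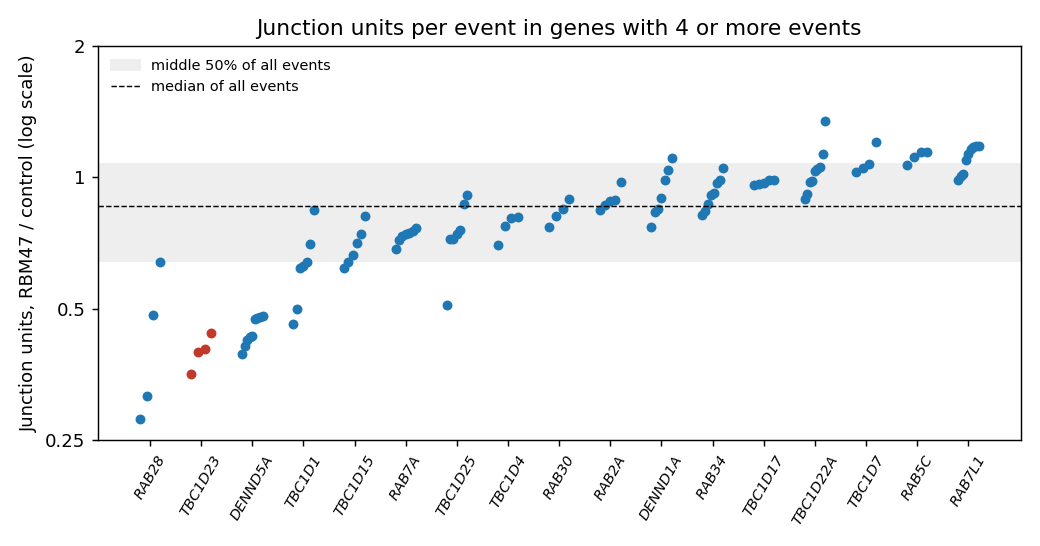
Ratio of junction units (including reads divided by 2, plus skipping reads) in RBM47 over control cells (y axis, log scale) for each event of the genes with 4 or more member events, ordered by the gene's median. Each point is 1 event from group totals, the dashed line is the median of all events (0.858) and the grey band their middle range (0.645 to 1.07); TBC1D23 (red, 0.354 to 0.440), RAB28 and DENND5A lie below the band at every event.

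Beyond the members, 86 other genes of the Rab cycle (effectors, escort proteins, exchange factors without a DENN symbol) were listed, of which 67 had 207 events. By the study's criteria 2 were higher (0.971%, against 0.615% of all events) and 5 lower (2.43%, against 0.793%). In limma 0 of 66 tested events were higher and 2 lower (0.750% and 0.783% of all tested events), and 7 had an unadjusted p under 0.05 (10.6%, against 12.0%). MADD, a DENN domain exchange factor for Rab3, was at 0.374, 0.554 and 0.507 in control and at 0.102, 0.209 and 0.204 in RBM47 samples. It fell by 0.306 with a limma adjusted p of 0.0444, and its read totals gave -0.294. EHBP1L1, a Rab8 effector, was called in limma at mean rates of 0.846 and 0.475 (-0.371, limma adjusted p = 0.00904). Its rates also came from the row that matched the RBM47 average alone, and its read totals gave 0.958 and 0.795, a difference of -0.162, which is under the 0.2 minimum, so this call is uncertain. The other 5 passed the study's criteria alone: TRAPPC9 (0.359) and SYTL4 (0.234) higher, MYO5A (-0.256), SBF1 (-0.249) and HPS4 (-0.242) lower, with limma adjusted p-values of 0.145 to 0.499. The SYTL4 event had only 19 control and 31 RBM47 reads, of which 1 and 14 included the exon. From read totals SBF1 (-0.197) and HPS4 (-0.192) were just under the minimum. Of the 13 genes listed as TBC1D23 partners at the trans-Golgi (golgins, the WASH complex, FAM91A1, WDR11 and C17orf75), 10 had 36 events. Of these 0 passed the study's criteria, and of 8 tested by limma 0 were called and 0 had an unadjusted p under 0.05.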

How the data were processed

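PolyA-selected RNA from 6 samples was sequenced, and the authors mapped reads to cassette exon junctions. The submitters' processing notes name TopHat, while STAR and hg19 are named by the study's methods for RNA-seq of these lines. Which build the table's coordinates use is not given in the sources used here. The deposited table gives an inclusion rate per sample and its group average as a fraction, and read counts that the authors summed over the 3 samples of a group. The authors also deposited their own comparison, namely a score (the difference of averages), an odds ratio and a p-value of Fisher's test, none of which was used.

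The rate of an event from its totals was including reads divided by including reads plus 2 times skipping reads. The mean of the sample rates and the rate from the totals differed by over 0.1 in 11 member events (5.53%, against 8.45% of all events). The reads behind the rate of a single sample are not given, and the reason for the gap was not tested. Rows whose rates did not average to the printed averages (1392 of 24725) were matched to the row with both averages (1122) or the RBM47 average alone (253) within 3e-09, and 17 rows were left without rates (13 with no match, 4 with several). Fisher's exact test (two-sided, scipy 1.17.1) was recomputed from the totals. limma 3.58.1 (R 4.3.3) was run on arcsine-square-root transformed rates, its variance trend following log2 reads, over all events with a mean rate of 0.1 to 0.9. Benjamini-Hochberg adjustment ran over all events tested (statsmodels 0.14.6 for Fisher's test). Because counts are not given per sample, no count model was used and no interval is given for a single sample.

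Exons were matched to GENCODE release 44, lifted to GRCh37, by gene and outer span, only for events whose ends are unique in the gene. Of the exons matched over all events, 99.4% were flanked by AG and GT. The members and gene lists were chosen with earlier results of these data known. Named events are those of TBC1D23, those past either test or with an unadjusted limma p under 0.05, up to 5 tested events per role with the most reads in the smaller group, and those next to a difference of 0.2. Other names were added after their values were seen, as stated there. Alternatives were another adjustment, other minimum differences and reads, rates from summed reads, aligned rows alone, other transformations, no trend, all mean rates, a replicate block and leaving out each sample.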

Additional observations from a re-analysis of the deposited data

How the results depend on the processing

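The counts of member events rest on the matching of rows: with rows aligned as deposited alone, 0 events were higher and 0 lower by the study's criteria and 0 higher and 0 lower in limma, because the rates of TBC1D23, TBC1D15, RAB30 and RAB11FIP3 came from matched rows. With the rates in the row as deposited, the TBC1D23 difference was 0.0582 and so reversed, while the read totals gave -0.577. A minimum difference of 0.1 gave 3 higher events by the study's criteria in place of 1, adding DENND5A and a second RAB30 event, and 4 lower in place of 3, adding TBC1D5. Shares of all events are not given for this or the other alternative settings, so these changes in count cannot be set against the whole table. At least 30 reads in each group left 2 lower events, without RAB30. All counts here include TBC1D23, a lower event that was chosen on its difference and lends them no support. Without it the main settings gave 2 lower events by the study's criteria and 0 in limma. The 1 higher event in limma, TBC1D15, entered the tested range only through its RBM47 rates. Untransformed rates gave 2 lower events in limma in place of 1, adding RAB11FIP3 (adjusted p = 0.0457). Leaving out 1 sample gave 1 to 2 higher events by the study's criteria (2 without RBM47 replicate 3, the second RAB30 event), 3 to 4 lower ones (4 without control replicate 3, adding TBC1D5 at -0.271) and 0 to 1 higher in limma (0 without control replicate 3, where TBC1D15 had an adjusted p of 0.0621), and the TBC1D23 difference stayed between -0.612 and -0.544.

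Replicate numbers did not mark pairs: across 6000 events, same-numbered samples deviated from their means with r = -0.0225, -0.0055 and 0.0139. With the replicate number as a block, limma gave 1 higher and 1 lower member event as without it, the lower being TBC1D23, chosen on its difference. Outside TBC1D23 the limma adjusted p-values were 0.0158 for TBC1D15, 0.141 for RAB11FIP3, 0.431 for RAB30 and 0.190 for DENND5A. Here too TBC1D15 entered the tested range only through its RBM47 rates. Of the members 9 have under 30 reads in at least 1 group, in RAB30, RAB37, TBC1D5, DENND4C (2 events), DENND1B, DENND5B, RAB36 and RAB5B, and these are limited most by depth.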
